A study of Mus musculus with 30 samples.

Results

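The genes described here encode adhesion receptors, receptors for lysophospholipids, prostaglandin E2, fatty acids, nucleotides, adenosine and formyl peptides, and the numbered orphan receptors. They were chosen by name, as protein-coding genes whose symbol begins with Adgr, S1pr, Lpar, Ptger, Hcar, Ffar, Adora or Fpr, or with Gpr or P2ry followed by a digit. Of 55414 genes in the count tables, 141 met this rule: 73 Gpr genes, 27 adhesion genes, 9 P2ry genes, 7 formyl peptide receptor genes, 6 Lpar, 5 S1pr, 4 each of Adora, Ffar and Ptger, and 2 Hcar. Another 5 genes with such a name are not annotated as protein coding and were left out. RNA came from bone marrow-derived macrophages of the mouse, grown from marrow precursors over 7 days in medium with 15 or 20% L929-conditioned medium, a source of macrophage growth factor. Cells of TRα1PV mice, which carry a mutant thyroid hormone receptor α1, were set against cells of wild-type (WT) mice in each of 3 states. M1 cells received lipopolysaccharide (LPS) and interferon-γ, each at 20 ng/mL, M2 cells received interleukin-4 (IL-4) at 20 ng/mL, and M0 cells received none of these. Each of the 6 groups (TRα1PV M1, WT M1, TRα1PV M2, WT M2, TRα1PV M0 and WT M0) held 5 libraries labelled as biological replicates. All 6 shared the culture and the polyA-selected library preparation. The sources used here do not state how long the stimulation lasted, nor the age, sex and zygosity of the mice.

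A G protein-coupled receptor spans the plasma membrane with a bundle of helices and, once its ligand binds, activates a heterotrimeric G protein that raises or lowers cAMP, releases calcium or acts on the cytoskeleton. GRK kinases and arrestins then switch the receptor off, and RGS proteins shorten the G protein signal. Adhesion receptors carry long extracellular regions and a tethered activating peptide, and orphan receptors have no agreed natural ligand. Macrophages use this class to sense chemoattractants, lysophospholipids such as sphingosine-1-phosphate (S1P) and lysophosphatidic acid (LPA), extracellular ATP and adenosine, prostaglandin E2 and acidity. The PV mutation is known for a receptor that no longer binds thyroid hormone and acts against the normal receptor in a dominant-negative way.

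Reads counted in genes ranged from 23015952 to 59086252 per library. Of the 141 genes, 18 had no read in any library, 52 had reads but fell below the filter on low counts, with at most 147 reads over the 30 libraries, and 71 were tested among 15686 genes. The 71 comprised 31 Gpr, 13 adhesion, 8 P2ry, 4 Lpar, 4 Ptger, 3 S1pr, 3 Adora, 2 formyl peptide, 2 Ffar and 1 Hcar gene. Thra, the gene that carries the mutation, had 50.8 to 61.1 CPM (read counts scaled for the depth of each library) in TRα1PV M0, against 22.3 to 26.9 CPM in WT M0, and the genotypes stayed apart in M1 and M2. Gene counts do not tell mutant from normal transcripts, so this does not check the mutation itself. The macrophage markers, 8 of 8 detected, summed to 26475 to 31293 CPM in TRα1PV M0 and 29164 to 33855 CPM in WT M0. The sums were lower in M1, at 7505 to 10186 CPM in TRα1PV and 8791 to 10358 CPM in WT. In M2 they were 18599 to 20810 CPM in TRα1PV and 19475 to 21870 CPM in WT. Of the 8, 1 was called higher and 2 lower in TRα1PV M0, where 26% of all genes were called. In TRα1PV M1 and in TRα1PV M2, 0 were higher and 2 lower, against 20% and 13.1% of all genes. Markers of T and NK cells, mast cells and erythroid cells summed to at most 0.246 CPM in any library. WT M0 replicate 2 stood apart by a mitochondrial share of 4.56% of its reads, and the results below were also computed without it.

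Per kilobase of exon, the receptor transcripts of these macrophages were led by Adgre1, which encodes the macrophage marker F4/80. Its median over the 30 libraries was 489 CPM per kb, with a range of 364 to 889. The next in order were Adgre5, which encodes the CD55-binding receptor CD97, at a median of 68.3 CPM per kb, P2ry6, the UDP receptor, at 64.0, and Gpr65, a proton-sensing receptor, at 62.0. Their ranges over the 30 libraries overlapped, so only the first place of Adgre1 was beyond the spread. Gpr108 and Gpr137b, at 34.4 and 29.7 CPM per kb, came next. Their products, like those of Gpr107, Gpr89 and Gpr155, sit mainly in intracellular membranes, and membership here rests on the name alone. Below them stood Gpr146 at 11.3 CPM per kb, the LPA receptor gene Lpar6 at 10.4, the S1P receptor gene S1pr2 at 10.3, the proton and lipid sensor gene Gpr132 at 7.98 and the orphan receptor gene Gpr141 at 7.64.

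**Figure D1:**
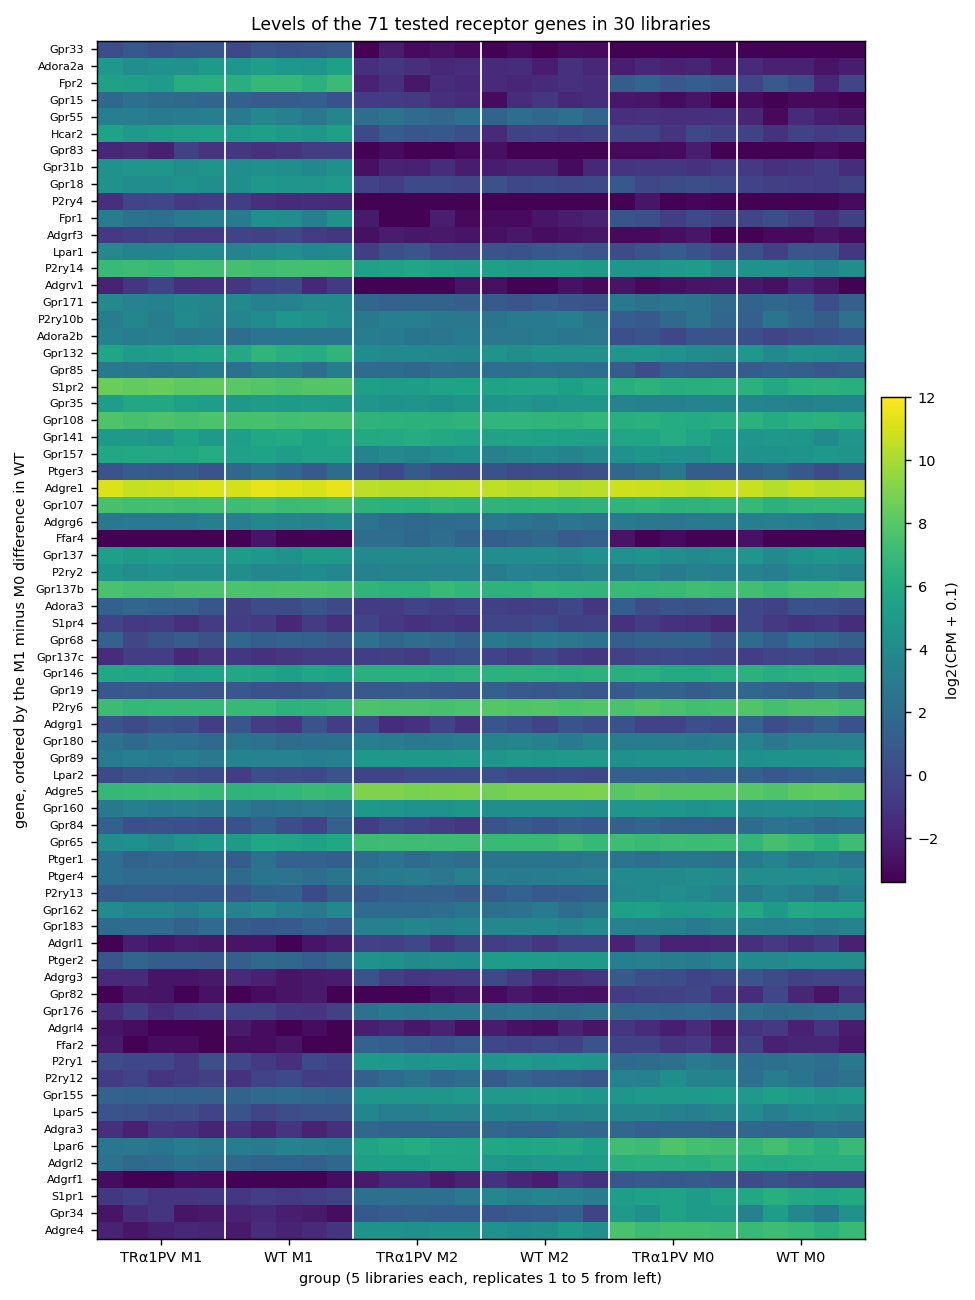
Level of the 71 tested receptor genes in each of the 30 libraries, as log2(CPM + 0.1) in colour, with genes down the page and libraries across it by group (TRα1PV before WT within M1, M2 and M0). Genes are ordered by the difference between M1 and M0 in WT; Adgre4 and S1pr1 are low, and Fpr2 and Adora2a high, in every M1 library of both genotypes.

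LPS with interferon-γ changed most of these genes in both genotypes. In TRα1PV, 30 of the 71 genes were higher in M1 than in M0 and 37 were lower; in WT, 32 were higher and 35 lower. That is 94.4% of the tested receptor genes in each genotype, against a background of 80.7% of all genes tested in TRα1PV (40% higher and 40.7% lower) and 79.6% in WT (39.4% higher and 40.2% lower). Between genotypes, 29 genes were called higher in both, 34 lower in both and 2 in opposite directions. The same count over all genes tested was not made. All values that follow are log2 differences with a standard error (SE) from edgeR's quasi-likelihood fit over all 15686 genes, with Benjamini-Hochberg adjusted p, called under 0.05, and levels are CPM.

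Among receptors for lysophospholipids, the S1P receptors split. S1pr1, the receptor that draws lymphocytes out of lymphoid tissue toward S1P, had 0.430, 0.589, 0.393, 0.378 and 0.432 CPM in TRα1PV M1, against 38.0, 43.2, 44.9, 33.8 and 48.3 CPM in TRα1PV M0. WT cells had 0.410, 0.559, 0.480, 0.600 and 0.750 CPM in M1, against 55.9, 80.2, 60.5, 53.0 and 61.9 CPM in M0. In both genotypes every M1 library lay far below every M0 library, with log2 differences of -6.54 ± 0.18 (adjusted p = 5.07e-24) in TRα1PV and -6.80 ± 0.18 (adjusted p = 1.26e-24) in WT. S1pr2, which acts against migration in several cell types, rose instead. It averaged 326 ± 32.8 CPM in TRα1PV M1 and 81.6 ± 7.85 CPM in TRα1PV M0, and 236 ± 20.2 CPM in WT M1 and 79.8 ± 12.2 CPM in WT M0 (SD, n = 5 each), a log2 difference of 2.00 ± 0.10 (adjusted p = 4.74e-18) in TRα1PV and 1.56 ± 0.10 (adjusted p = 1.88e-15) in WT. The LPA receptors also split: Lpar1 rose, by 3.37 ± 0.24 (adjusted p = 5.29e-14) in TRα1PV and 3.80 ± 0.25 (adjusted p = 9.42e-15) in WT, while Lpar6 and Lpar5 fell. Lpar6 changed by -4.64 ± 0.16 (adjusted p = 1.19e-21) in TRα1PV and -3.78 ± 0.15 (adjusted p = 7.49e-20) in WT, and Lpar5 by -3.41 ± 0.16 (adjusted p = 3.57e-18) in TRα1PV and -3.52 ± 0.16 (adjusted p = 1.42e-18) in WT. Lpar6 lies within an intron of Rb1 in the reference annotation, and reads of such nested genes cannot be told apart where counting ignores strand.

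Receptors for chemoattractants and metabolites were among the genes that rose most. Fpr2 and Fpr1 encode the formyl peptide receptors by which phagocytes find bacteria. Fpr2 averaged 52.9 ± 20.3 CPM in TRα1PV M1 and 2.10 ± 0.561 CPM in TRα1PV M0, and 107 ± 23.3 CPM in WT M1 and 0.944 ± 0.577 CPM in WT M0 (SD, n = 5 each). The rise was 4.66 ± 0.27 (adjusted p = 3.16e-16) in TRα1PV and 6.83 ± 0.30 (adjusted p = 6.48e-19) in WT. Adora2a, the adenosine receptor that raises cAMP and restrains inflammatory macrophages, had 27.8, 17.9, 22.1, 20.7 and 31.6 CPM in TRα1PV M1, against 0.135, 0.210, 0.148, 0.191 and 0.0832 CPM in TRα1PV M0. In WT it had 26.1, 36.6, 28.4, 25.7 and 40.5 CPM in M1, against 0.255, 0.153, 0.147, 0.0664 and 0.123 CPM in M0. The M1 libraries lay above the M0 libraries throughout, by 7.23 ± 0.22 (adjusted p = 7.52e-23) in TRα1PV and 7.72 ± 0.23 (adjusted p = 4.68e-23) in WT. Hcar2, the receptor for niacin and the ketone body β-hydroxybutyrate, rose alike, by 5.95 ± 0.21 (adjusted p = 1.33e-21) in TRα1PV and 5.93 ± 0.21 (adjusted p = 3.95e-21) in WT. Gpr18, reported as a receptor for lipid mediators, rose by 4.18 ± 0.15 (adjusted p = 2.75e-21) in TRα1PV and 5.36 ± 0.16 (adjusted p = 6.89e-23) in WT. Gpr33, an orphan of the chemoattractant receptor group, had no read in either M0 group and 195 reads in TRα1PV M1 and 188 in WT M1. With a floor of 3 reads over the M0 group it was at least 116-fold higher in TRα1PV M1 and at least 87.1-fold higher in WT M1, limits that cover counting error only.

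Nucleotide receptors moved both ways. P2ry14, the receptor for UDP-glucose, rose by 2.44 ± 0.13 (adjusted p = 8.79e-17) in TRα1PV and 3.20 ± 0.14 (adjusted p = 2.76e-19) in WT. The ADP receptor genes fell. P2ry12, known from platelets and microglia, changed by -4.52 ± 0.27 (adjusted p = 6.35e-16) in TRα1PV and -3.21 ± 0.26 (adjusted p = 2.53e-12) in WT, and P2ry1 by -2.52 ± 0.21 (adjusted p = 4.57e-12) in TRα1PV and -2.998 ± 0.23 (adjusted p = 3.76e-13) in WT. Of the 4 prostaglandin E receptor genes, Ptger4, which raises cAMP, fell, with differences of -1.99 ± 0.12 (adjusted p = 7.67e-16) in TRα1PV and -1.80 ± 0.12 (adjusted p = 6.89e-15) in WT. Ptger2, which also raises cAMP, fell too, with -2.15 ± 0.14 (adjusted p = 7e-15) in TRα1PV and -2.51 ± 0.13 (adjusted p = 6.43e-17) in WT.

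Of the 13 tested adhesion genes, 3 were higher and 8 lower with M1 in TRα1PV, and 4 were higher and 9 lower in WT, against the background of 80.7% of all genes called in TRα1PV and 79.6% in WT. Adgre4, a myeloid relative of F4/80, had 0.0786 to 0.227 CPM in TRα1PV M1, against 144 to 189 CPM in TRα1PV M0, and 0.102 to 0.395 CPM in WT M1, against 89.8 to 149 CPM in WT M0. Its differences were -9.91 ± 0.22 (adjusted p = 3.01e-26) in TRα1PV and -9.04 ± 0.21 (adjusted p = 9.41e-26) in WT, and the M1 and M0 libraries did not overlap. Adgre5 averaged 124 ± 9.97 CPM in TRα1PV M1 and 263 ± 17.3 CPM in TRα1PV M0, and 111 ± 10.3 CPM in WT M1 and 264 ± 31.7 CPM in WT M0 (SD, n = 5 each). Its log2 difference was -1.08 ± 0.07 (adjusted p = 3.35e-14) in TRα1PV and -1.25 ± 0.07 (adjusted p = 1.2e-15) in WT. Adgrl2, which encodes latrophilin 2, changed by -4.24 ± 0.10 (adjusted p = 7.14e-26) in TRα1PV and -4.67 ± 0.10 (adjusted p = 2.58e-26) in WT. Adgre1 itself was higher in WT M1, by 0.74 ± 0.10 (adjusted p = 1.15e-07). In TRα1PV its difference was 0.27 ± 0.10 (adjusted p = 0.0153), and the adjusted p was 0.0587 without TRα1PV M1 replicate 1 and 0.0558 without TRα1PV M1 replicate 5, 0.0581 with only the compared groups in the fit and 0.858 with the percentage of reads outside genes in the model.

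**Figure D2:**
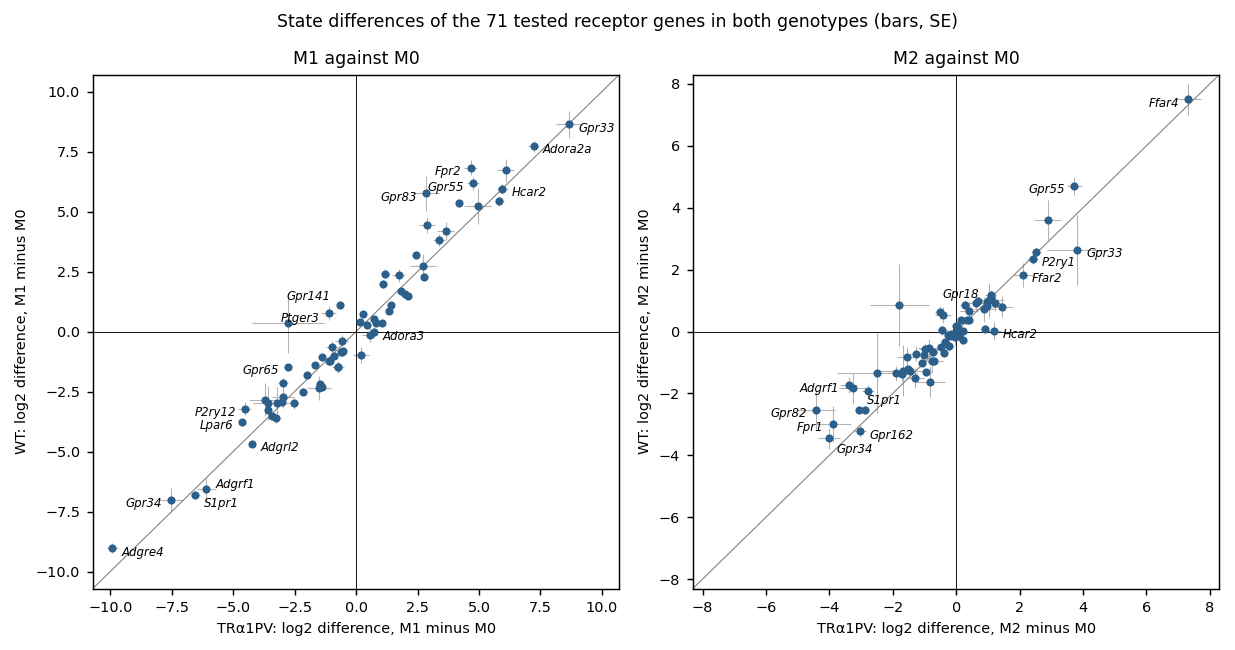
Log2 difference of each of the 71 receptor genes between M1 and M0 (one panel) and between M2 and M0 (other panel), with the TRα1PV value on the horizontal axis, the WT value on the vertical axis and bars of 1 SE. Most points lie along the diagonal; Gpr141 and Ptger3 fall on opposite sides of 0 in M1. Fitted values of genes with almost no read in one group, such as Gpr33 and Ffar4, depend on the prior count.

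IL-4 moved these genes in both directions as well. In TRα1PV, 21 of the 71 genes were higher in M2 than in M0 and 30 lower, 71.8% of those tested against a background of 57.7% of all genes (28.3% higher and 29.4% lower). In WT, 20 were higher and 28 lower, 67.6% against a background of 52.4% (25.2% higher and 27.2% lower). Both genotypes gave a call for 16 genes higher, 25 lower and 1, Gpr18, in opposite directions. Here too, the same count over all genes tested was not made. Gpr18 was lower with M2 in TRα1PV, with a difference of -0.50 ± 0.18 (adjusted p = 0.0157), and higher in WT, by 0.62 ± 0.20 (adjusted p = 0.00921), but neither call was firm. In TRα1PV the adjusted p was 0.102 without TRα1PV M0 replicate 1 and 0.0549 without TRα1PV M2 replicate 2, 0.0898 with limma-voom, 0.0552 with only the compared groups in the fit and 0.0611 with the percentage of reads outside genes in the model. In WT it was 0.0625 with limma-voom. Ffar4, the receptor for long-chain fatty acids, was almost silent outside M2. It had 4.23, 4.24, 3.26, 4.13 and 2.79 CPM in TRα1PV M2, against 5 reads over the 5 TRα1PV M0 libraries, and 2.29, 2.73, 3.23, 1.95 and 2.42 CPM in WT M2, against 2 reads over the 5 WT M0 libraries. Every M2 library lay above every M0 library. The ratio in WT was 239, with a 95% exact interval of 65.8 to 1982 that covers counting error only, and the fitted log2 difference was 7.31 ± 0.42 (adjusted p = 3.53e-14) in TRα1PV. The short-chain fatty acid receptor gene Ffar2 rose too, by 2.11 ± 0.32 (adjusted p = 1.74e-06) in TRα1PV and 1.82 ± 0.38 (adjusted p = 0.000181) in WT.

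P2ry1, an ADP receptor gene that was lower with M1, was higher with M2. It had 29.8, 28.5, 23.4, 27.1 and 27.2 CPM in TRα1PV M2, against 3.60, 3.98, 4.78, 7.49 and 5.55 CPM in TRα1PV M0, and 24.3, 29.5, 25.1, 28.2 and 24.9 CPM in WT M2, against 4.33, 4.87, 5.47, 4.42 and 6.96 CPM in WT M0. The groups did not overlap in either genotype, with differences of 2.41 ± 0.17 (adjusted p = 1.71e-13) in TRα1PV and 2.34 ± 0.17 (adjusted p = 5.72e-13) in WT. The same opposite pattern, lower with M1 and higher with M2 in both genotypes, was called for 6 genes, Adgre5, Adgrl1, Ffar2, Gpr89, P2ry1 and Ptger2. How many of all genes tested had this pattern, or those of the next paragraph, was not counted. These counts therefore do not set the receptor genes apart from other genes. Adgre5 averaged 511 ± 15.1 CPM in TRα1PV M2 and 469 ± 29.0 CPM in WT M2, above its M0 level by 0.96 ± 0.07 (adjusted p = 2.07e-12) in TRα1PV and 0.83 ± 0.07 (adjusted p = 6.3e-11) in WT. Ptger2 rose by 0.97 ± 0.12 (adjusted p = 2.74e-08) in TRα1PV and 0.96 ± 0.12 (adjusted p = 3.17e-08) in WT. The WT call of Adgrl1 was the weak one of the 6, with an adjusted p of 0.0659 to 0.108 without WT M0 replicate 1, 3 or 5 or WT M2 replicate 2, 4 or 5 in turn, 0.0664 with no filter on low counts and 0.0831 with the percentage of reads outside genes in the model.

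The reverse, higher with M1 and lower with M2 in both genotypes, was called for 8 genes: Fpr1, Fpr2, Gpr137, Gpr137b, Gpr157, Gpr171, Gpr31b and S1pr2. Fpr2 changed by -3.26 ± 0.43 (adjusted p = 1.22e-07) in TRα1PV and -1.84 ± 0.50 (adjusted p = 0.00269) in WT with M2, and its WT value had an adjusted p of 0.1 with limma-voom. The call of Gpr171 in WT M2 was also weak, with an adjusted p of 0.0527 to 0.0846 without WT M0 replicate 2 or 3 or WT M2 replicate 2 or 5 in turn, 0.134 with limma-voom, 0.0974 with only the compared groups in the fit, 0.125 with the percentage of reads outside genes in the model and 0.0902 without both M0 libraries numbered 2. So were those of Gpr137. In TRα1PV M2 its adjusted p was 0.0648 without TRα1PV M0 replicate 2. In WT M2 it was 0.0589 to 0.0972 without WT M0 replicate 1 or 4 or WT M2 replicate 4 in turn and 0.079 with only the compared groups in the fit, and in WT M1 0.0609 with only the compared groups in the fit and 0.155 with the percentage of reads outside genes in the model. Another 14 genes were lower with both stimuli in both genotypes, among them S1pr1, Lpar6, Ptger4, Gpr34, Adgre4, Adgrl2, P2ry12 and P2ry13. S1pr1 changed by -3.05 ± 0.13 (adjusted p = 1.94e-18) in TRα1PV and -2.53 ± 0.13 (adjusted p = 9.69e-17) in WT with M2, and Gpr34, a receptor for lysophosphatidylserine, with a difference of -4.01 ± 0.34 (adjusted p = 1.28e-11) in TRα1PV and -3.46 ± 0.34 (adjusted p = 7.02e-10) in WT. A further 8 genes were higher with both stimuli in both genotypes. They included Adora2b, the low-affinity adenosine receptor gene, which averaged 7.05 ± 0.977 CPM in TRα1PV M2 and 1.24 ± 0.239 CPM in TRα1PV M0, and 6.59 ± 0.385 CPM in WT M2 and 1.12 ± 0.255 CPM in WT M0 (SD, n = 5 each). Its rise was 2.52 ± 0.15 (adjusted p = 4.81e-15) in TRα1PV and 2.56 ± 0.15 (adjusted p = 1.06e-14) in WT.

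The mutant receptor went with changes of receptor genes in every state. In M0, 15 of the 71 genes were higher in TRα1PV than in WT and 10 lower, 35.2% against a background of 26% of all genes tested (12% higher and 14% lower). In M1, 11 were higher and 13 lower, 33.8% against a background of 20% (9.74% higher and 10.2% lower). In M2, 8 were higher and 8 lower, 22.5% against a background of 13.1% (6.14% higher and 6.96% lower). At least 1 state gave a call for 43 genes, and 28 had none. Only Gpr160, Ptger2 and Adgrg6 were called in the same direction in all 3 states. How many of all genes tested were called in at least 1 state, or in all 3, was not counted. Single libraries moved the counts of each state. Genes lower in TRα1PV M0 numbered 4 without TRα1PV M0 replicate 3, 6 without WT M0 replicate 4, 16 without WT M0 replicate 2 and 5 with the percentage of reads outside genes added to the model, and genes higher numbered 9 with only the compared groups in the fit. In M1, 8 were lower without WT M1 replicate 3. In M2, 4 were higher without WT M2 replicate 5. Genes lower in TRα1PV M2 numbered 3 without WT M2 replicate 1, 5 without TRα1PV M2 replicate 2, 3 or 4 in turn, 4 without TRα1PV M2 replicate 5, 5 with that percentage in the model and 15 with only the compared groups. The percentage of reads outside genes itself ran with genotype, with medians of 13.4% in TRα1PV M0 and 11.6% in WT M0, 10.6% in TRα1PV M1 and 9.57% in WT M1, and 10.9% in TRα1PV M2 and 9.46% in WT M2, although the ranges overlapped in each state. With it in the model, 13 of the 25 calls in M0, 24 of the 24 in M1 and 10 of the 16 in M2 remained. These p-values measure the spread between libraries labelled biological replicates.

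Markers of other cell types differed between the genotypes as well. The monocyte markers Ly6c2, Ccr2 and F13a1, 3 of 3 detected, summed to 1035 to 1259.7 CPM in TRα1PV M0 against 483 to 565 CPM in WT M0, to 46.0 to 68.3 CPM in TRα1PV M1 against 52.8 to 73.6 CPM in WT M1, and to 135 to 176 CPM in TRα1PV M2 against 53.4 to 98.6 CPM in WT M2. Granulocyte markers, 10 of 10 detected in M0 and M2, summed to 178 to 365 CPM in TRα1PV M0 against 48.4 to 209 CPM in WT M0 and to 98.3 to 228 CPM in TRα1PV M2 against 28.6 to 92.8 CPM in WT M2. In M1 they summed to 5.68 to 11.3 CPM in TRα1PV against 3.48 to 5.29 CPM in WT, with Elane at 0 in both. All 3 monocyte markers and all 9 tested granulocyte markers were called higher in TRα1PV M0. Of the monocyte markers, 1 was called higher and 0 lower in TRα1PV M1, and 1 higher and 1 lower in TRα1PV M2. Of the granulocyte markers, 1 was called higher and 0 lower in TRα1PV M1, and 6 higher and 0 lower in TRα1PV M2. Fibroblast markers ran the other way, with 7 of 7 tested called lower in TRα1PV M0. They summed to 0.753 to 1.65 CPM in TRα1PV M0 against 4.47 to 18.8 CPM in WT M0, where Lum was at 0, to 1.32 to 2.44 CPM in TRα1PV M1 against 4.20 to 5.93 CPM in WT M1, with Pdgfra at 0 in both, and to 0.758 to 1.91 CPM in TRα1PV M2 against 2.48 to 11.5 CPM in WT M2, with Lum at 0 in both. Megakaryocyte markers, 3 of 4 detected with Gp1bb at 0 in both, summed to 215 to 369 CPM in TRα1PV M0 and 149.5 to 211 CPM in WT M0. They summed to 62.3 to 98.0 CPM in TRα1PV M1 against 51.7 to 67.5 CPM in WT M1, with Gp1bb at 0 in both. In M2 the sums were 84.9 to 118 CPM in TRα1PV, with Gp9 and Gp1bb at 0, and 49.4 to 89.4 CPM in WT, with Gp1bb at 0. Of the 2 tested, 1 was called higher in TRα1PV M0, 2 in TRα1PV M1 and 1 in TRα1PV M2, and 0 were lower. Dendritic cell markers, 4 of 4 detected, summed to 37.6 to 94.4 CPM in TRα1PV M1 against 111 to 177 CPM in WT M1, with 3 of 4 called lower. Endothelial markers, 5 listed and 3 tested, summed to 10.6 to 22.0 CPM in TRα1PV M0 against 6.69 to 10.5 CPM in WT M0, with 2 called higher and Emcn at 0 in TRα1PV M0. They summed to 80.5 to 100.2 CPM in TRα1PV M1 against 61.1 to 83.3 CPM in WT M1, with 1 called higher and Emcn at 0 in both, and to 27.2 to 38.8 CPM in TRα1PV M2 against 19.1 to 24.7 CPM in WT M2, with 2 called higher and 1 lower, and Tek and Emcn at 0 in TRα1PV M2. Eosinophil markers, 4 listed and 3 tested, summed to 4.04 to 5.71 CPM in TRα1PV M0 against 1.79 to 3.77 CPM in WT M0, with 2 called higher and Epx at 0 in WT M0. B cell markers, 4 listed and 1 tested, summed to 5.02 to 8.13 CPM in TRα1PV M0 against 3.04 to 6.03 CPM in WT M0, with Pax5 and Ms4a1 at 0 in WT M0. The tested B cell gene was called higher in TRα1PV M0 and in TRα1PV M1. The part of these cells in the receptor results was not tested, and in bulk RNA fewer cells of a type and less RNA per cell cannot be told apart.

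**Figure D3:**
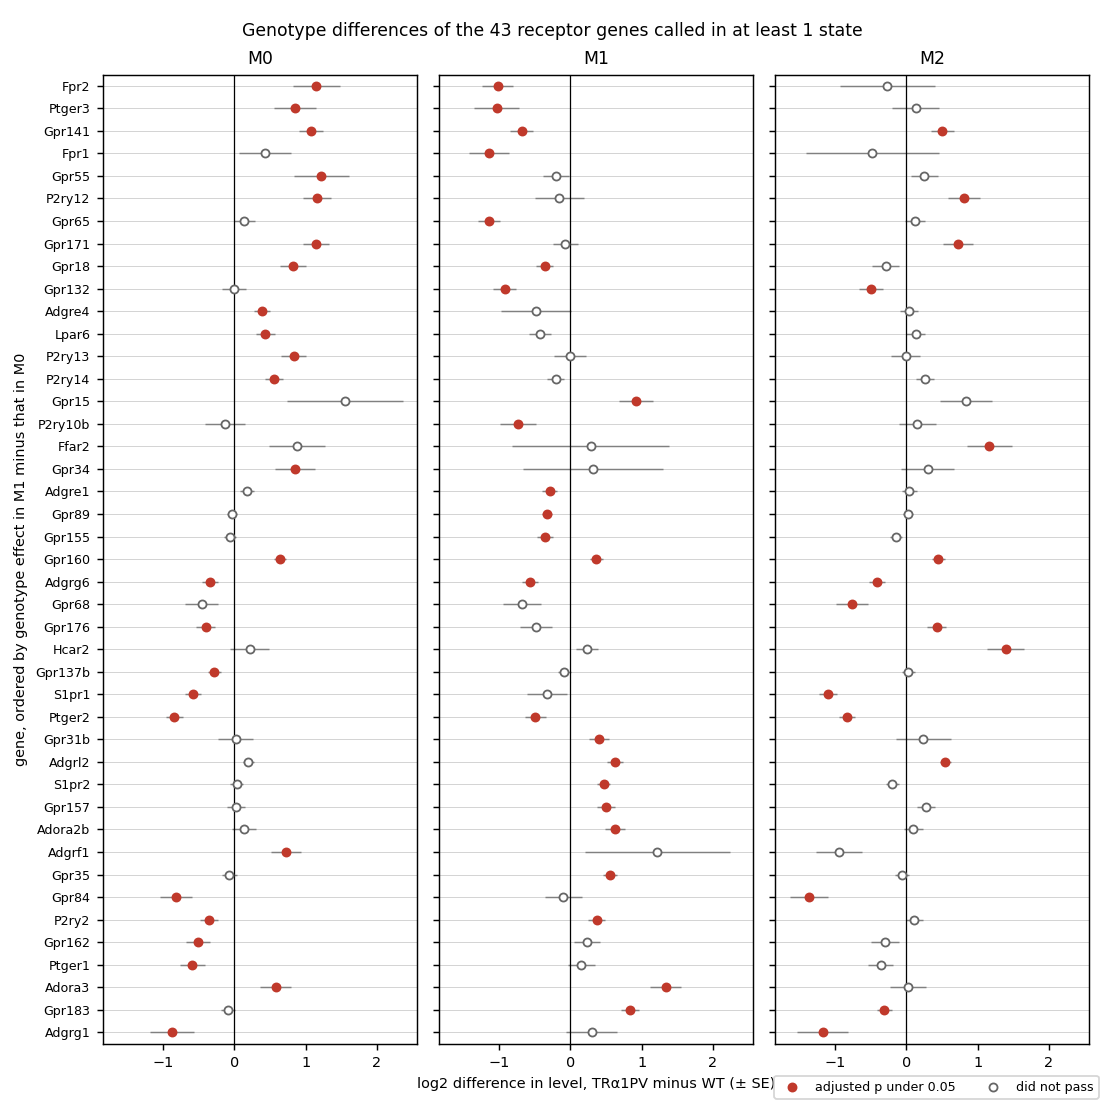
Log2 difference, TRα1PV minus WT, with 1 SE, of the 43 receptor genes called in at least 1 state, in M0, M1 and M2. Filled symbols have an adjusted p under 0.05; Ptger2 and Adgrg6 lie left of 0 and Gpr160 right of 0 in all 3 states, while Fpr2, Gpr141, Gpr18, P2ry2 and Ptger3 are called on opposite sides in M0 and M1.

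Ptger2 was lower in TRα1PV in all 3 states. It had 9.41, 9.96, 8.62, 8.05 and 10.5 CPM in TRα1PV M0, against 15.3, 14.2, 17.5, 18.0 and 18.3 CPM in WT M0, and 21.1, 19.6, 15.1, 18.2 and 17.1 CPM in TRα1PV M2, against 33.7, 32.5, 34.5, 30.7 and 31.1 CPM in WT M2. In both states the 5 TRα1PV libraries lay below the 5 WT libraries, with differences of -0.84 ± 0.12 (adjusted p = 3.68e-06) in M0 and -0.83 ± 0.12 (adjusted p = 8.03e-06) in M2. In M1, where the gene was scarce, it averaged 2.10 ± 0.526 CPM in TRα1PV cells, against 2.94 ± 0.649 CPM in WT cells (SD, n = 5 each). The M1 difference was -0.49 ± 0.15 (adjusted p = 0.0231), and its adjusted p was 0.0599 to 0.0849 without TRα1PV M1 replicate 1 or 5 or WT M1 replicate 2, 3 or 5 in turn, 0.0782 with limma-voom and 0.0881 with only the compared groups in the fit. Ptger4, the other prostaglandin E receptor gene that raises cAMP, had differences of -0.12 ± 0.11 in M0 (adjusted p = 0.44), -0.31 ± 0.12 in M1 (adjusted p = 0.0749) and -0.19 ± 0.11 in M2 (adjusted p = 0.266), none of which passed. Its M1 adjusted p was 0.0129 without WT M1 replicate 1 and 0.0487 without WT M1 replicate 4. Ptger1, a calcium-coupled receptor gene, was lower in TRα1PV M0, with a difference of -0.59 ± 0.17 (adjusted p = 0.0108), with an adjusted p of 0.0715 without both M0 libraries numbered 2, and its counts are uncertain where counting ignored strand.

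Gpr160, an orphan receptor gene, was higher in TRα1PV in all 3 states. Its libraries had 25.1, 27.2, 25.2, 22.0 and 26.1 CPM in TRα1PV M0, against 15.6, 16.5, 17.0, 14.5 and 17.1 CPM in WT M0. There, all 5 TRα1PV M0 libraries lay above the 5 WT M0 libraries, by 0.64 ± 0.09 (adjusted p = 2.29e-06), and the difference was 0.37 ± 0.10 (adjusted p = 0.00765) in M1 and 0.45 ± 0.09 (adjusted p = 0.000731) in M2. Its M1 adjusted p was 0.0588 with only the compared groups in the fit. Adgrg6, an adhesion receptor gene needed for the myelination of peripheral nerves, was lower in TRα1PV in all 3 states, at 7.88 ± 0.898 CPM in TRα1PV M1 and 11.7 ± 1.88 CPM in WT M1 (SD, n = 5 each). The differences were -0.35 ± 0.11 (adjusted p = 0.0204) in M0, -0.57 ± 0.11 (adjusted p = 0.0005) in M1 and -0.42 ± 0.12 (adjusted p = 0.0168) in M2. The M0 adjusted p was 0.0612 without TRα1PV M0 replicate 3 and 0.0566 without both M0 libraries numbered 2, and the M2 adjusted p was 0.0676 without WT M2 replicate 1 and 0.0583 without TRα1PV M2 replicate 3.

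S1pr1 was lower in TRα1PV in the unstimulated and IL-4 states. In M0 it had 38.0, 43.2, 44.9, 33.8 and 48.3 CPM in TRα1PV, against 55.9, 80.2, 60.5, 53.0 and 61.9 CPM in WT, and in M2 4.64, 4.52, 4.71, 4.63 and 6.58 CPM in TRα1PV, against 13.03, 9.64, 12.2, 10.5 and 8.59 CPM in WT. In each state all 5 TRα1PV libraries lay below the 5 WT libraries, with a difference of -0.58 ± 0.12 (adjusted p = 0.000412) in M0 and -1.10 ± 0.13 (adjusted p = 4.13e-07) in M2. In M1, where S1pr1 was below 1 CPM in every library, the difference of -0.32 ± 0.28 (adjusted p = 0.447) did not pass. Gpr84, a receptor for medium-chain fatty acids, followed the same course. It averaged 2.39 ± 0.341 CPM in TRα1PV M0 and 4.20 ± 0.806 CPM in WT M0, and 0.641 ± 0.190 CPM in TRα1PV M2 and 1.64 ± 0.248 CPM in WT M2 (SD, n = 5 each). The genotypes did not overlap in either state, with differences of -0.81 ± 0.22 (adjusted p = 0.00804) in M0 and -1.37 ± 0.27 (adjusted p = 0.000907) in M2. Adgrg1 was lower in the same 2 states, with a difference of -0.87 ± 0.31 (adjusted p = 0.0398) in M0 and -1.17 ± 0.35 (adjusted p = 0.0263) in M2, but in M0 its adjusted p was 0.0711 to 0.132 without TRα1PV M0 replicate 2, 3 or 5 or WT M0 replicate 1 or 4 in turn and 0.249 with the percentage of reads outside genes in the model. In M2 it was 0.0683 to 0.0782 without TRα1PV M2 replicate 2, 3 or 5 or WT M2 replicate 1 in turn and 0.0587 with the percentage of reads outside genes in the model.

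Adgrl2 was higher in TRα1PV in both stimulated states. It had 41.4, 41.3, 39.2, 48.3 and 48.0 CPM in TRα1PV M2, against 29.8, 27.4, 29.0, 29.9 and 33.4 CPM in WT M2, where all 5 TRα1PV libraries were the higher ones. The differences were 0.62 ± 0.11 (adjusted p = 0.000139) in M1 and 0.55 ± 0.08 (adjusted p = 2.94e-05) in M2. In M0 it was 0.20 ± 0.08 (adjusted p = 0.0694), and the adjusted p was 0.0297 with limma-voom, 0.0239 with the replicate block and 0.0406 with the percentage of reads outside genes in the model. Hcar2 was higher in TRα1PV with IL-4. It had 0.955, 1.99, 1.57, 1.73 and 1.16 CPM in TRα1PV M2, against 0.248, 0.639, 0.745, 0.570 and 0.671 CPM in WT M2. Although these levels are low, all 5 TRα1PV M2 libraries lay above the 5 WT M2 libraries, by 1.39 ± 0.25 (adjusted p = 0.000357). Its differences of 0.21 ± 0.27 (adjusted p = 0.591) in M0 and 0.24 ± 0.15 (adjusted p = 0.29) in M1 did not pass, and the change of the difference from M0 to M2 was not among those called. Ffar2 was higher in TRα1PV M2 too, by 1.16 ± 0.31 (adjusted p = 0.013), with a mean of 2.01 ± 0.462 CPM in TRα1PV cells, against 0.890 ± 0.267 CPM in WT cells (SD, n = 5 each).

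**Figure D4:**
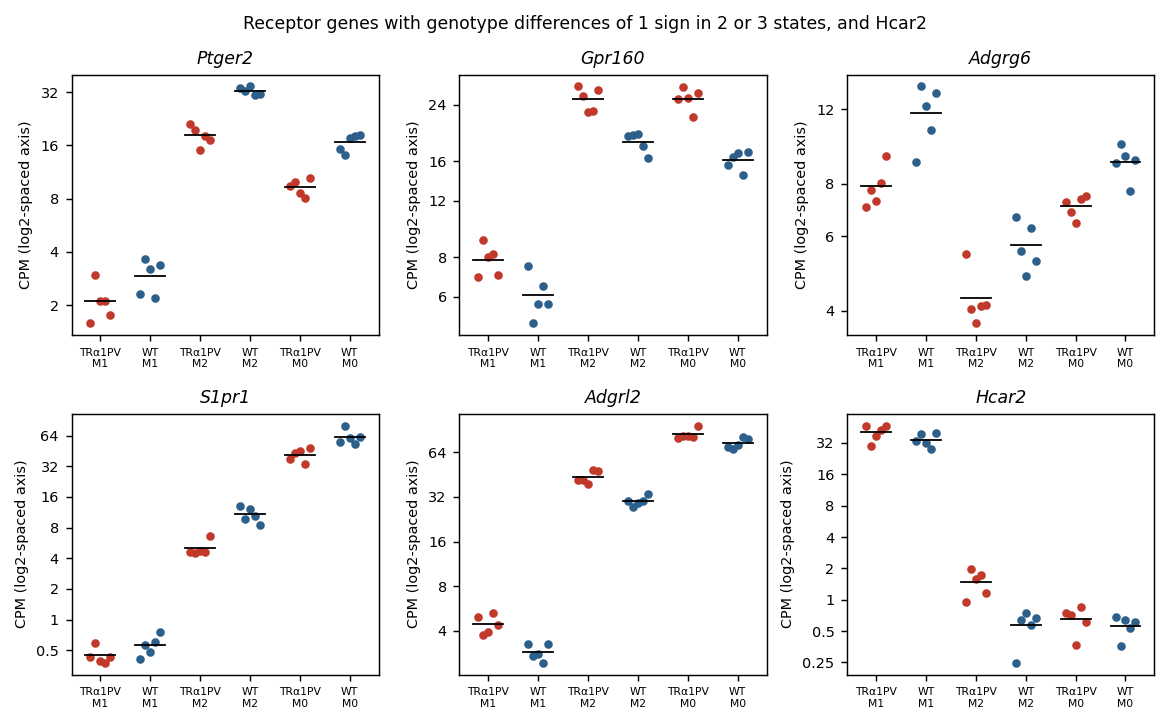
CPM of Ptger2, Gpr160, Adgrg6, S1pr1, Adgrl2 and Hcar2 in each library on a log2-spaced axis, by state with TRα1PV left of WT; each point is a library and each line a group mean. The TRα1PV points of Ptger2 and S1pr1 lie below the WT points in M0 and M2, and those of Gpr160 lie above them in M0.

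Of the 8 tested P2ry genes, 3 were higher and 1 was lower in TRα1PV M0, against a background of 12% of all genes higher and 14% lower. P2ry12 had 10.8, 10.1, 19.0, 11.0 and 11.6 CPM in TRα1PV M0, against 4.65, 8.42, 5.79, 3.94 and 5.31 CPM in WT M0. There, all 5 TRα1PV M0 libraries lay above the 5 WT M0 libraries, by 1.16 ± 0.20 (adjusted p = 8.64e-05). P2ry13, a further ADP receptor gene, differed by 0.83 ± 0.18 (adjusted p = 0.000752), and P2ry14 by 0.55 ± 0.13 (adjusted p = 0.00216), with an adjusted p of 0.0549 with only the compared groups in the fit. Gpr171, an orphan receptor gene beside them on chromosome 3, differed by 1.14 ± 0.19 (adjusted p = 4.11e-05). All 4 lie within Med12l, which is read from the other strand, and Med12l itself had 3.46 to 4.49 CPM in TRα1PV M0 and 1.70 to 3.34 CPM in WT M0. The sources used here do not state how the counting treated strand, and if it was ignored, reads shared with Med12l cannot be told apart. In M2, P2ry12 and Gpr171 were again higher in TRα1PV, by 0.81 ± 0.22 (adjusted p = 0.0159) and 0.73 ± 0.21 (adjusted p = 0.019). For P2ry12 the adjusted p was 0.0548 without TRα1PV M2 replicate 3 and 0.0595 without WT M2 replicate 5 and 0.0512 with the percentage of reads outside genes in the model. For Gpr171 it was 0.0599 without WT M2 replicate 5 and 0.0553 with limma-voom. P2ry2, which responds to ATP and UTP, was the member called lower in M0, with a difference of -0.36 ± 0.12 (adjusted p = 0.0304), and its call did not hold under several alternatives: the adjusted p was 0.0761 to 0.12 without TRα1PV M0 replicate 1 or 3 or WT M0 replicate 3 or 4 in turn, 0.104 with only the compared groups in the fit and 0.204 with the percentage of reads outside genes in the model.

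Of the remaining calls in M0, Adgrf1, an adhesion receptor gene, was higher in TRα1PV at 1.68 ± 0.165 CPM, against 1.02 ± 0.192 CPM in WT (SD, n = 5 each). The difference was 0.73 ± 0.21 (adjusted p = 0.0105), with an adjusted p of 0.0761 with the percentage of reads outside genes in the model. Gpr55, a receptor for lysophosphatidylinositol, differed by 1.22 ± 0.39 (adjusted p = 0.0201), with an adjusted p of 0.0547 without WT M0 replicate 2 and 0.0596 without WT M0 replicate 4, 0.0514 with limma-voom and 0.074 without both M0 libraries numbered 2. Gpr34 differed by 0.85 ± 0.28 (adjusted p = 0.0265), and the TRα1PV M0 and WT M0 libraries overlapped. Gpr34 lies within Cask on the other strand, and Cask had 37.2 to 40.3 CPM in TRα1PV M0 and 35.1 to 39.6 CPM in WT M0. WT M0 replicate 2 reached 37.1 CPM of Gpr34, and the adjusted p was 0.05 to 0.0931 without TRα1PV M0 replicate 3 or 4 or WT M0 replicate 1, 3 or 4 in turn, 0.0832 with DESeq2, 0.153 with only the compared groups in the fit and 0.186 with the percentage of reads outside genes in the model. Lpar6 and Adgre4 were higher by 0.43 ± 0.13 (adjusted p = 0.016) and 0.39 ± 0.12 (adjusted p = 0.0153). Rb1, within which Lpar6 lies on the other strand, also ran higher in TRα1PV M0. It averaged 155 ± 22.6 CPM there and 113 ± 31.2 CPM in WT M0 (SD, n = 5 each). If counting ignored strand, reads of Lpar6 and Rb1 cannot be told apart. For Lpar6 the adjusted p was 0.0884 without TRα1PV M0 replicate 3 and 0.0689 without WT M0 replicate 4, 0.0858 with only the compared groups in the fit and 0.24 with the percentage of reads outside genes in the model. For Adgre4 it was 0.0556 without TRα1PV M0 replicate 1 and 0.0664 without WT M0 replicate 4 and 0.158 with the percentage of reads outside genes in the model. Gpr137b and Gpr162 were called lower in TRα1PV M0, and neither call was firm. With that percentage in the model the adjusted p was 0.0771 for Gpr137b and 0.523 for Gpr162. Without TRα1PV M0 replicate 3 it was 0.0609 for Gpr137b and 0.0725 for Gpr162.

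In M1 cells the receptors for formyl peptides and acidity were lower in TRα1PV. Gpr65, which raises cAMP when the medium turns acid, had 17.8, 19.9, 15.8, 23.5 and 28.8 CPM in TRα1PV M1, against 31.8, 55.6, 49.3, 41.7 and 55.2 CPM in WT M1. Here, all 5 TRα1PV M1 libraries lay below the 5 WT M1 libraries, with a difference of -1.14 ± 0.15 (adjusted p = 3.78e-06). Gpr132 had 49.9, 33.0, 36.7, 45.6 and 48.4 CPM in TRα1PV M1, against 59.0, 102, 75.1, 69.0 and 100.1 CPM in WT M1. It too was separated, with a difference of -0.92 ± 0.16 (adjusted p = 0.000139). Gpr132 was also called lower in TRα1PV M2, a state where 7 of 16 genotype calls held with each library left out in turn. Fpr1 averaged 6.90 ± 1.79 CPM in TRα1PV M1 and 15.3 ± 6.38 CPM in WT M1 (SD, n = 5 each), a difference of -1.14 ± 0.28 (adjusted p = 0.00388). In M0 the differences of Gpr65 and Fpr1 were 0.14 ± 0.14 (adjusted p = 0.497) and 0.43 ± 0.37 (adjusted p = 0.412), neither of which passed. Gpr89 was lower in TRα1PV M1, with a difference of -0.33 ± 0.07 (adjusted p = 0.00142). Adgre1 was lower, with a difference of -0.29 ± 0.10 (adjusted p = 0.0389), with an adjusted p of 0.0511 to 0.133 without TRα1PV M1 replicate 2, 3 or 4 or WT M1 replicate 2, 3 or 5 in turn and 0.0719 with only the compared groups in the fit.

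Among the genes higher in TRα1PV M1, the adenosine receptor gene Adora3 had 2.51, 3.06, 2.68, 2.42 and 1.57 CPM in TRα1PV, against 0.615, 0.969, 0.994, 1.34 and 0.908 CPM in WT. The genotypes did not overlap, and the difference was 1.34 ± 0.22 (adjusted p = 7.34e-05). Adora2b was higher as well, by 0.62 ± 0.14 (adjusted p = 0.00159). Adora3 overlaps Tmigd3 on the same strand, which had at most 0.151 CPM in TRα1PV M1. Adora3 was also called higher in TRα1PV M0, but that call was not firm. The adjusted p was 0.063 to 0.17 without TRα1PV M0 replicate 1, 3 or 5 or WT M0 replicate 1, 2 or 5 in turn. It was 0.0732 with no filter and 0.097 with only the compared groups in the fit. With the percentage of reads outside genes in the model it was 0.149. Gpr183, the oxysterol receptor that guides B cells and dendritic cells, had 3.98, 3.85, 3.86, 2.72 and 3.83 CPM in TRα1PV M1, against 2.15, 1.68, 1.88, 2.61 and 1.90 CPM in WT M1. Here, all 5 TRα1PV M1 libraries lay above the 5 WT M1 libraries, by 0.83 ± 0.13 (adjusted p = 2.32e-05). In M2 it was lower in TRα1PV, with a difference of -0.31 ± 0.10 (adjusted p = 0.045), but the M2 adjusted p was 0.0547 to 0.137 without TRα1PV M2 replicate 1, 2, 4 or 5 or WT M2 replicate 1, 2, 3 or 5 in turn, 0.0977 with no filter on low counts and 0.0948 with the percentage of reads outside genes in the model. Gpr183 lies within Ubac2 on the other strand, which had 43.8 to 54.5 CPM in TRα1PV M1 and 44.1 to 55.8 CPM in WT M1.

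S1pr2 had 374, 322, 339.5, 289.5 and 305 CPM in TRα1PV M1, against 262, 233, 205, 238 and 240.1 CPM in WT M1. All 5 TRα1PV libraries were above the 5 WT libraries, by 0.47 ± 0.09 (adjusted p = 0.000583). Gpr35, a receptor reported to respond to tryptophan metabolites, had 37.2, 57.2, 55.7, 42.6 and 37.3 CPM in TRα1PV M1, against 28.1, 33.7, 32.1, 32.8 and 29.4 CPM in WT M1. It was again separated by genotype, by 0.56 ± 0.10 (adjusted p = 0.000139). Gpr15, known as a homing receptor of gut lymphocytes, and Gpr157 were higher in TRα1PV M1 by 0.92 ± 0.24 (adjusted p = 0.00728) and 0.50 ± 0.12 (adjusted p = 0.00474).

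The difference between genotypes was itself different in M1 and M0 for 25 of the 71 genes: 10 moved up in TRα1PV relative to WT and 15 moved down, against a background of 26.6% of all genes tested (13.3% up and 13.3% down). The 10 became 4 without TRα1PV M1 replicate 1, 5 without WT M1 replicate 3, 6 without TRα1PV M0 replicate 3 or 4 or WT M0 replicate 4 in turn, 6 with no filter on low counts and 16 without both M0 libraries numbered 2. For M2 and M0 the difference changed for 3 genes, 1 up and 2 down, against a background of 2.16% (0.701% up and 1.46% down). With the replicate number as a block these were 2 up and 3 down, and 4 were down without WT M0 replicate 2. Of the 5 genes called in opposite directions in M0 and M1, Fpr2, Gpr141, Ptger3 and Gpr18 were higher in TRα1PV M0 and lower in TRα1PV M1, and P2ry2 was lower in TRα1PV M0 and higher in TRα1PV M1. The number of such genes among all genes tested was not counted. The RefSeq promoters of Fpr2, Gpr141, Ptger3 and Gpr18 are shown because these 4 genes shared the directions of their genotype calls in M0 and M1. Their response to M1 was not shared. Fpr2 and Gpr18 rose in both genotypes, while Gpr141 and Ptger3 were called in opposite directions. Each line gives the 250 bases before the annotated start, 5′ to 3′ on the gene's strand, in build GRCm38.p6, whereas the counts were made on GRCm39. Capitals mark a match to 1 of 5 motifs.
Fpr2: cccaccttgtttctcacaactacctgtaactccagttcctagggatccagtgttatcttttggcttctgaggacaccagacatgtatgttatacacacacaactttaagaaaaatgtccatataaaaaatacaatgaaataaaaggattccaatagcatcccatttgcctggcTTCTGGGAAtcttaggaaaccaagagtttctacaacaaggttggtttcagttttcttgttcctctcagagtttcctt
Gpr141: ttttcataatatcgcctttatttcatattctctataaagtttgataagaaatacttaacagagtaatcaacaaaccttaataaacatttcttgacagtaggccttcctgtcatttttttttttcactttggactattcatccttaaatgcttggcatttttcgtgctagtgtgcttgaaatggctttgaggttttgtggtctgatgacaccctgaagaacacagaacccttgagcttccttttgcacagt
Ptger3: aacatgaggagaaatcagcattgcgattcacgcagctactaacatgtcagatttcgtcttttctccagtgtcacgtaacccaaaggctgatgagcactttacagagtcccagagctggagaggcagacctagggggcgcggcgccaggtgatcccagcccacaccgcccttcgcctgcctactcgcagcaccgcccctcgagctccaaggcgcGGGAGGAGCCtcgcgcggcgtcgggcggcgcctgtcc
Gpr18: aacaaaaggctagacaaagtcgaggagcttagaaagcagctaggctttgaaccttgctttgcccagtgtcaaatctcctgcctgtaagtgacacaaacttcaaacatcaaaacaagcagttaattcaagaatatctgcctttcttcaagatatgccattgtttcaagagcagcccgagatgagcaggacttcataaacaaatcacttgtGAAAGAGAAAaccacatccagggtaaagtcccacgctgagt
The windows lie at chr17:17887574-17887823 (plus strand) for Fpr2, chr13:19824258-19824507 (minus strand) for Gpr141, chr3:157566626-157566875 (plus strand) for Ptger3 and chr14:121915889-121916138 (minus strand) for Gpr18. The motifs, searched on both strands, were the nuclear receptor half-site AGGTCA, the STAT palindromes TTCNNNGAA and TTCNNNNGAA, the interferon-type repeat GAAANNGAAA and the NF-κB-type GGGANNNNCC. Fpr2 held 1 TTCNNNGAA, Gpr18 1 GAAANNGAAA and Ptger3 1 GGGANNNNCC, and none of the 5 motifs occurred in the Gpr141 window. Of 32851 promoter windows of this length, 14.02% held AGGTCA, 7.02% TTCNNNGAA, 5.85% TTCNNNNGAA, 2.98% GAAANNGAAA and 17.63% GGGANNNNCC. Among the 58 tested receptor genes with a window, 13, 5, 3, 3 and 13 held them in the same order. These are counts of genes, and where a gene had several windows a match in any of them counted. They are therefore not comparable with the percentages, which are of single windows. A match describes letters in a window. For Ptger3 and Gpr18 the bases just after the annotated start occurred in no transcript of the gene in the annotation used for symbols. For Fpr2 and Gpr141 they occurred within a transcript, which does not show that a transcript starts there.

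Fpr2 had 43.2, 38.8, 32.9, 73.4 and 76.0 CPM in TRα1PV M1, against 77.2, 115, 116, 90.9 and 137 CPM in WT M1. In M0, where it was scarce, it had 2.12, 2.96, 1.59, 2.23 and 1.61 CPM in TRα1PV, against 0.793, 1.79, 1.15, 0.221 and 0.767 CPM in WT. So all 5 TRα1PV M1 libraries lay below the 5 WT M1 libraries after LPS with interferon-γ, and in M0 the TRα1PV M0 and WT M0 libraries overlapped. The differences were -1.02 ± 0.22 (adjusted p = 0.00116) in M1 and 1.15 ± 0.33 (adjusted p = 0.00954) in M0, and they differed from each other by -2.17 ± 0.39 (adjusted p = 0.000239). The M0 adjusted p was 0.0595 with only the compared groups in the fit and 0.0611 with the percentage of reads outside genes in the model. In M2 the difference of -0.27 ± 0.66 (adjusted p = 0.82) did not pass. Fpr2 overlaps its paralog Fpr3 on the same strand, and Fpr3 had at most 0.261 CPM in any library. Fpr1 moved the same way, with a change of -1.57 ± 0.46 (adjusted p = 0.0128), with an adjusted p of 0.0504 with limma-voom.

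Gpr141, an orphan receptor gene of myeloid cells, turned as well. It had 31.3, 31.0, 25.3, 44.8 and 29.2 CPM in TRα1PV M1, against 38.4, 53.8, 63.4, 46.5 and 57.3 CPM in WT M1, and 49.7, 52.2, 69.8, 49.9 and 33.9 CPM in TRα1PV M0, against 26.1, 28.4, 26.8, 15.1 and 25.0 CPM in WT M0. In M0, all 5 TRα1PV M0 libraries lay above the 5 WT M0 libraries, and in M1 the TRα1PV M1 and WT M1 libraries overlapped. The differences were -0.68 ± 0.16 (adjusted p = 0.00358) in M1 and 1.08 ± 0.16 (adjusted p = 1.37e-05) in M0, a change of -1.76 ± 0.23 (adjusted p = 7.02e-06). Put by genotype, Gpr141 fell with M1 in TRα1PV, with a difference of -0.66 ± 0.16 (adjusted p = 0.000498), and rose in WT, by 1.10 ± 0.17 (adjusted p = 5.76e-07). The fall in TRα1PV had an adjusted p of 0.0897 with the percentage of reads outside genes in the model. In M2 it was higher in TRα1PV, by 0.50 ± 0.16 (adjusted p = 0.039), with 61.1, 65.1, 68.9, 61.9 and 52.4 CPM in TRα1PV M2 against 44.6, 47.6, 46.7, 41.7 and 38.4 CPM in WT M2. All 5 TRα1PV libraries lay above the WT ones, although the adjusted p was 0.0509 to 0.107 without TRα1PV M2 replicate 1, 2, 3 or 4 or WT M2 replicate 1, 2, 3, 4 or 5 in turn and 0.116 with the percentage of reads outside genes in the model. The near copy Gpr141b is not annotated as protein coding. How the counting treated reads that fit both copies is not stated in the sources used here.

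Ptger3, the prostaglandin E receptor gene that lowers cAMP, had 1.36, 2.00, 1.75, 2.12 and 1.33 CPM in TRα1PV M1, against 3.42, 4.96, 3.39, 1.77 and 3.99 CPM in WT M1, and 3.26, 4.11, 6.91, 2.10 and 1.94 CPM in TRα1PV M0, against 2.52, 3.32, 1.69, 1.04 and 1.69 CPM in WT M0. In M1 the TRα1PV M1 and WT M1 libraries overlapped, and in M0 the TRα1PV M0 and WT M0 libraries overlapped. The differences of -1.04 ± 0.31 (adjusted p = 0.0183) in M1 and 0.85 ± 0.29 (adjusted p = 0.0308) in M0 differed from each other by -1.89 ± 0.43 (adjusted p = 0.00209). Neither single call was firm: the M1 adjusted p was 0.0517 without TRα1PV M1 replicate 1 and 0.0626 without WT M1 replicate 2 and 0.0542 with limma-voom, and the M0 adjusted p was 0.0515 to 0.227 without TRα1PV M0 replicate 2 or 3 or WT M0 replicate 3, 4 or 5 in turn, 0.14 with only the compared groups in the fit and 0.165 with the percentage of reads outside genes in the model. With M1, Ptger3 fell in TRα1PV, with a difference of -1.11 ± 0.30 (adjusted p = 0.00144), and rose in WT, by 0.77 ± 0.30 (adjusted p = 0.0201). In TRα1PV the adjusted p was 0.0838 with the percentage of reads outside genes in the model, and in WT it was 0.0746 without WT M1 replicate 2 and 0.071 without WT M0 replicate 4. Gpr18 had 21.6, 17.6, 17.3, 22.9 and 19.4 CPM in TRα1PV M1, against 19.3, 28.5, 24.2, 25.3 and 29.6 CPM in WT M1, and 1.60, 0.812, 0.989, 1.13 and 0.887 CPM in TRα1PV M0, against 0.708, 0.613, 0.565, 0.531 and 0.675 CPM in WT M0. In M0 all 5 TRα1PV M0 libraries lay above the 5 WT M0 libraries, and in M1 the TRα1PV M1 and WT M1 libraries overlapped. Its differences were -0.36 ± 0.12 (adjusted p = 0.0369) in M1 and 0.82 ± 0.18 (adjusted p = 0.0013) in M0, a change of -1.18 ± 0.22 (adjusted p = 0.000339). The M1 adjusted p was 0.0539 to 0.115 without TRα1PV M1 replicate 2, 3 or 5 or WT M1 replicate 2, 3, 4 or 5 in turn. Between M2 and M0 its genotype difference changed by -1.12 ± 0.26 (adjusted p = 0.0158), with an adjusted p of 0.136 with limma-voom, and the M2 difference of -0.29 ± 0.19 (adjusted p = 0.3) did not pass. Gpr18, like Gpr183, lies within Ubac2 on the other strand.

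**Figure D5:**
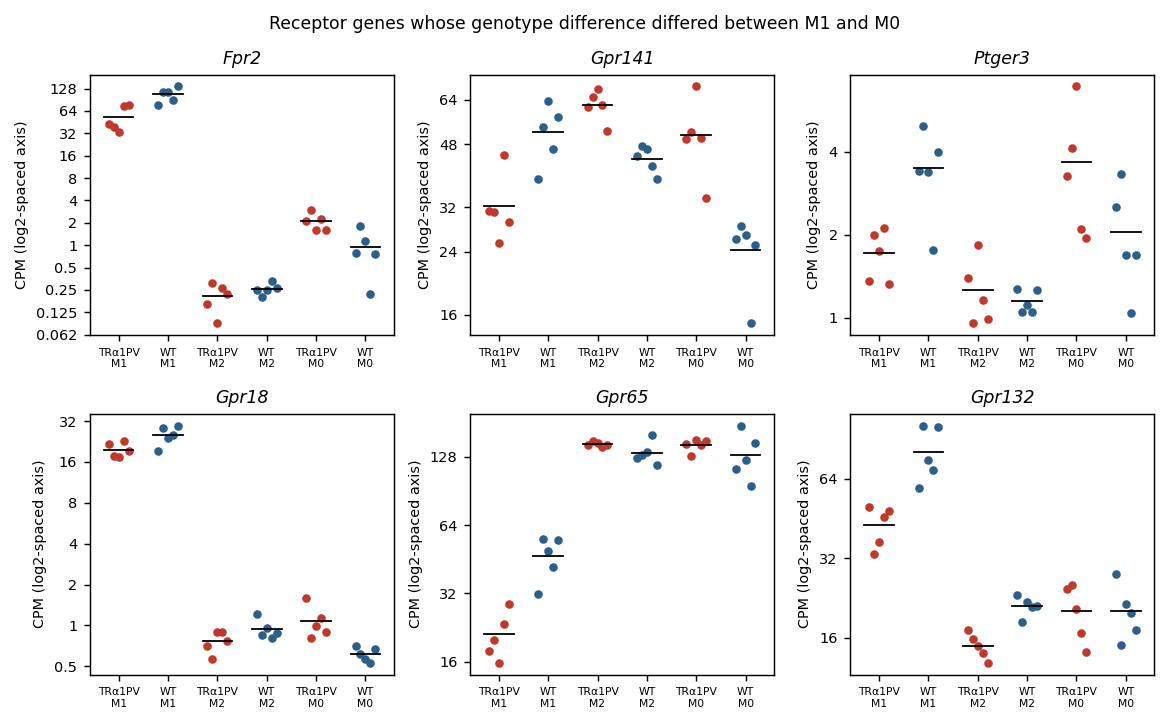
CPM of Fpr2, Gpr141, Ptger3, Gpr18, Gpr65 and Gpr132 in each library on a log2-spaced axis, by state with TRα1PV left of WT; points are libraries and lines group means. The TRα1PV points of Gpr141 lie above the WT points in M0 and M2, and those of Gpr65 and Gpr132 lie below them in M1.

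Further genes had a genotype difference that changed between M0 and M1. Gpr65 had a change of -1.28 ± 0.21 (adjusted p = 8.23e-05), and Gpr132 of -0.92 ± 0.23 (adjusted p = 0.00453), both down in TRα1PV. Lpar6, P2ry14 and Gpr171 also moved down, with changes of -0.86 ± 0.21 (adjusted p = 0.0032), -0.76 ± 0.18 (adjusted p = 0.00298) and -1.22 ± 0.26 (adjusted p = 0.00112). Rb1, the gene around Lpar6, ran higher in TRα1PV M0 but averaged 91.9 ± 13.8 CPM in TRα1PV M1 and 105 ± 12.4 CPM in WT M1 (SD, n = 5 each). Gpr183, Gpr35 and P2ry2, the fifth gene called in opposite directions, moved up in TRα1PV, by 0.92 ± 0.16 (adjusted p = 0.000199), 0.63 ± 0.14 (adjusted p = 0.00196) and 0.73 ± 0.17 (adjusted p = 0.00309). S1pr2 moved up by 0.44 ± 0.13 (adjusted p = 0.0155). The M1 difference of P2ry2 was 0.37 ± 0.12 (adjusted p = 0.0311), and its adjusted p was 0.0761 to 0.115 without TRα1PV M1 replicate 1 or 3 or WT M1 replicate 2, 3 or 5 in turn and 0.0585 with no filter on low counts. With IL-4, Adgrf1 and Gpr176, an orphan receptor gene of the circadian clock centre in the brain, were called besides Gpr18. Adgrf1 had 0.0948 to 0.224 CPM in TRα1PV M2 and 0.124 to 0.450 CPM in WT M2, against 1.50 to 1.88 CPM in TRα1PV M0 and 0.818 to 1.30 CPM in WT M0. Its genotype difference changed by -1.67 ± 0.38 (adjusted p = 0.0133). Gpr176 averaged 6.44 ± 0.765 CPM in TRα1PV M2 and 4.81 ± 0.460 CPM in WT M2, and 3.46 ± 0.328 CPM in TRα1PV M0 and 4.58 ± 0.724 CPM in WT M0 (SD, n = 5 each). That was a change of 0.82 ± 0.19 (adjusted p = 0.013). It was called lower in TRα1PV M0 and higher in TRα1PV M2, with differences of -0.40 ± 0.13 (adjusted p = 0.0268) in M0 and 0.42 ± 0.13 (adjusted p = 0.0337) in M2. The M0 adjusted p was 0.0538 to 0.0868 without TRα1PV M0 replicate 3 or 5 or WT M0 replicate 1, 4 or 5 in turn, 0.0617 with no filter on low counts, 0.0506 with only the compared groups in the fit and 0.095 with the percentage of reads outside genes in the model. The M2 adjusted p was 0.0623 to 0.0868 without TRα1PV M2 replicate 2, 4 or 5 or WT M2 replicate 1, 3, 4 or 5 in turn and 0.0579 with no filter on low counts. These differences share the M0 libraries, so those of M1 and of M2 are not independent of each other.

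Genes of the proteins that relay and end receptor signals were called with M1 at counts to be read against the 80.7% of all genes called in TRα1PV and 79.6% in WT. Of 21 tested G protein subunit genes of 29 listed, 13 were higher and 5 lower with M1 in TRα1PV, and 12 were higher and 6 lower in WT. Their median log2 difference was 0.56 in TRα1PV and 0.44 in WT, against -0.02 over all genes in TRα1PV and -0.02 in WT. Gnb4, a β subunit gene, rose by 3.10 ± 0.11 (adjusted p = 2.48e-21) in TRα1PV and 3.75 ± 0.12 (adjusted p = 6.73e-23) in WT. Of 7 tested GRK and arrestin genes of 8 listed, 0 were higher and 4 lower with M1 in TRα1PV, and 1 was higher and 6 lower in WT. Arrb2, which encodes β-arrestin 2, fell with M1, with differences of -1.42 ± 0.08 (adjusted p = 1.49e-16) in TRα1PV and -1.57 ± 0.08 (adjusted p = 1.5e-17) in WT, and with M2, with -1.76 ± 0.08 (adjusted p = 7.58e-18) in TRα1PV and -1.62 ± 0.08 (adjusted p = 7.5e-17) in WT. Of 10 tested RGS genes of 21 listed, 5 were higher and 5 lower with M1 in each genotype, and Rgs10 changed by -3.72 ± 0.08 (adjusted p = 7.8e-27) in TRα1PV and -3.59 ± 0.08 (adjusted p = 1.67e-26) in WT.

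Between genotypes, where 26% of all genes were called in M0, 20% in M1 and 13.1% in M2, 3 of the 21 G protein genes were higher and 3 lower in TRα1PV M0, 2 were higher and 0 lower in TRα1PV M1, and 4 were higher and 3 lower in TRα1PV M2. Gngt2, a γ subunit gene, was lower in TRα1PV M0, with a difference of -1.12 ± 0.14 (adjusted p = 3.95e-07), with a mean of 15.4 ± 2.05 CPM in TRα1PV cells, against 33.7 ± 5.13 CPM in WT cells (SD, n = 5 each). Gnas, which encodes the subunit that activates adenylyl cyclase, was lower, with a difference of -0.32 ± 0.08 (adjusted p = 0.00266), at 358 ± 18.5 CPM in TRα1PV M0 and 448 ± 48.5 CPM in WT M0. Gna15 was lower in TRα1PV M2, with a difference of -0.69 ± 0.13 (adjusted p = 0.000597). Of the 7 GRK and arrestin genes, 1 was higher and 1 lower in TRα1PV M0, 0 were called in TRα1PV M1 and 2 were lower in TRα1PV M2. In M1, edgeR gave 1 of the 7 an unadjusted p under 0.05, and DESeq2 and limma-voom also called 0. Of the 10 RGS genes, 0 were called in TRα1PV M0, 1 was higher and 2 lower in TRα1PV M1, and 1 was lower in TRα1PV M2. In M0, edgeR gave 2 of the 10 an unadjusted p under 0.05, and DESeq2 and limma-voom each called 1, which was higher in TRα1PV. Rgs2 was lower in both stimulated states, with a difference of -0.45 ± 0.09 (adjusted p = 0.000521) in M1 and -0.57 ± 0.09 (adjusted p = 4.06e-05) in M2. Of 17 tested genes of cAMP and calcium signalling of 20 listed, 1 was higher and 5 lower in TRα1PV M0, 3 were higher and 3 lower in TRα1PV M1, and 2 were higher and 3 lower in TRα1PV M2. The adenylyl cyclase gene Adcy7 was lower in TRα1PV M2, with a difference of -0.83 ± 0.08 (adjusted p = 2.56e-09), and the cAMP-responsive gene Crem was lower in TRα1PV M1, with a difference of -0.46 ± 0.09 (adjusted p = 0.000486).

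Genes of enzymes that make or remove the ligands are given by list, to be read against the 26% of all genes called between genotypes in M0, 20% in M1 and 13.1% in M2. For prostaglandin E2, 8 of 9 listed genes were tested: 2 were higher and 3 lower in TRα1PV M0, 2 were higher and 3 lower in TRα1PV M1, and 1 was higher and 0 lower in TRα1PV M2. Ptgs2, which encodes cyclooxygenase-2, averaged 2339.9 ± 651 CPM in TRα1PV M1 and 3810.2 ± 414 CPM in WT M1 (SD, n = 5 each), a difference of -0.70 ± 0.15 (adjusted p = 0.00134). Its rise with M1 was 10.44 ± 0.23 (adjusted p = 3.79e-26) in TRα1PV and 10.73 ± 0.24 (adjusted p = 2.58e-26) in WT. Ptgs1, which encodes cyclooxygenase-1, was higher in TRα1PV M1, by 0.97 ± 0.15 (adjusted p = 2.11e-05). Hpgd, the enzyme that inactivates prostaglandin E2, was higher in TRα1PV M0 by 0.89 ± 0.16 (adjusted p = 0.000109) and in TRα1PV M2 by 0.85 ± 0.19 (adjusted p = 0.00345). For S1P, 6 of 7 listed genes were tested, and 0 were higher and 1 lower in TRα1PV M0, 1 higher and 0 lower in TRα1PV M1 and 0 higher and 1 lower in TRα1PV M2. The S1P-forming kinase gene Sphk2 was the lower one in both, with a difference of -0.81 ± 0.09 (adjusted p = 8.19e-08) in M0 and -0.77 ± 0.09 (adjusted p = 4.13e-07) in M2, and its genotype difference changed by 0.88 ± 0.13 (adjusted p = 2.27e-05) between M0 and M1.

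For LPA, 5 of 7 listed genes were tested, and 0 were higher and 2 lower in TRα1PV M0, 1 higher and 1 lower in TRα1PV M1 and 0 higher and 2 lower in TRα1PV M2. Enpp2, which encodes the LPA-forming enzyme autotaxin, had 1.91 to 7.46 CPM in TRα1PV M1, against 0.434 to 1.20 CPM in WT M1. The libraries did not overlap, and the difference was 2.31 ± 0.40 (adjusted p = 0.000107). For nucleotides and adenosine, 9 of 14 listed genes were tested, and 2 were higher and 4 lower in TRα1PV M0, 0 were higher and 0 lower in TRα1PV M1, and 1 was higher and 2 lower in TRα1PV M2. In M1, 0 of these 9 had an unadjusted p under 0.05 in edgeR, and DESeq2 and limma-voom also called 0. Entpd1, which encodes the ATP-degrading enzyme CD39, was higher in TRα1PV M0 by 0.25 ± 0.07 (adjusted p = 0.00503) and in TRα1PV M2 by 0.44 ± 0.07 (adjusted p = 3.17e-05). Ch25h, which starts the synthesis of the oxysterol ligand of Gpr183, rose with M1 by 5.90 ± 0.38 (adjusted p = 5.22e-15) in TRα1PV and 6.80 ± 0.43 (adjusted p = 4.49e-15) in WT.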

How the data were processed

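PolyA RNA of 30 libraries in 6 groups of 5 was analysed. The authors deposited 1 table of raw counts a library, with reads summed by Ensembl gene ID. Per the submitters' processing notes, the build was GRCm39 and the tools HTSeq 1.99.2, HISAT2 2.2.1, Trimmomatic 0.39, edgeR, limma, Cufflinks, R 4.3.2 and FastQC 0.11.9, with no role stated. The strand setting and annotation release were not given in the sources used here. Of 55414 genes, 52081 received a symbol from a GRCm38 annotation, which also gave exon lengths. Promoter sequences are from RefSeq on GRCm38.p6 and were found for 108 of the 141 genes. The totals that HTSeq lists apart stayed out of library sizes and tests. Those overlapping no gene equalled 8.84 to 14.7% of the reads in and outside genes.

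Counts were analysed with edgeR 4.0.16 in R 4.3.3: filterByExpr, given the 6 groups, removed genes with few reads (minimum count 10, minimum total 15), and after TMM scaling 1 quasi-likelihood model took a mean per group, which left 24 residual degrees of freedom. Tests were two-sided, adjusted by Benjamini-Hochberg over 15686 genes and called under 0.05. SE is the absolute log2 difference divided by the square root of F and is approximate for scarce genes. CPM use TMM-scaled library sizes. Alternatives were RLE factors, DESeq2 1.42.0, limma-voom 3.58.1, no filter, only the compared groups, a replicate block, the percentage of reads outside genes in the model, both M0 libraries numbered 2 left out, and each library left out in turn. The fits were tested on simulated data.

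Genes are named if they belong to the lipid, nucleotide, adenosine or formyl peptide families or are Adgre1, Adgre4 or Adgre5, rank among the largest or most significant calls of a comparison, or have a high level per kb; genes outside the receptor set come from fixed lists. The members, lists and rules were chosen with earlier results of these data known. Some marker genes, left out of their lists' sums and counts, and a gene next to a member are not reported here. The replicate numbers come from a label tagged batch. As a check of pairing, the deviations of same-numbered TRα1PV and WT libraries from their group means were correlated: in M0 r was -0.37 to 0.26, in M1 -0.17 to 0.17 and in M2 -0.02 to 0.21. Between states of 1 genotype r was -0.24 to 0.33. The signs were mixed in all 7 pairs of groups. No library repeated another: over the 60 pairs within groups, chi-square divided by its degrees of freedom was 6.19 to 186.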

Additional observations from a re-analysis of the deposited data

Results flagged for a closer look

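The difference between TRα1PV and WT changed with state in 28 tests of the difference itself (edgeR quasi-likelihood, Benjamini-Hochberg adjusted p under 0.05). Between M0 and M1 it moved up, as a change in log2 difference, by 0.92 for Gpr183, 0.74 for Ptger1, 0.73 for Gpr162, 0.73 for P2ry2, 0.63 for Gpr35, 0.48 for Gpr157, 0.45 for Gpr137, 0.44 for S1pr2, 0.42 for Adgrl2 and 0.30 for Gpr108. It moved down for 15 genes, with changes of -2.17 for Fpr2, -1.89 for Ptger3, -1.76 for Gpr141, -1.57 for Fpr1, -1.42 for Gpr55, -1.31 for P2ry12, -1.28 for Gpr65, -1.22 for Gpr171, -1.18 for Gpr18, -0.92 for Gpr132, -0.86 for Lpar6, -0.84 for P2ry13, -0.76 for P2ry14, -0.47 for Adgre1 and -0.30 for Gpr89. Between M0 and M2 the change was 0.82 for Gpr176, -1.12 for Gpr18 and -1.67 for Adgrf1. Of these, the M1 changes of Gpr108, Ptger1, Gpr137, Gpr89, Adgrl2, P2ry12, P2ry13, Gpr162 and Gpr157 were lost when some single library was left out.

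Single libraries stood far from the other 4 of their group in 19 of 246 groups checked over 41 named genes. The cut-off flags about 1 in 20 groups of 5 normally distributed values. That rate does not apply to scarce genes. There, 1 library with reads beside 4 without is always flagged, and a group wholly at 0 never is, though it counts among the 246. In TRα1PV M0 the library apart was that of Adgre5 with 294 CPM in replicate 2 (the other 4, 253 to 259 CPM), Adgrl2 with 96.7 CPM in replicate 5 (the other 4, 80.4 to 82.3 CPM) and P2ry12 with 19.0 CPM in replicate 3 (the other 4, 10.1 to 11.6 CPM). All 3 were above the rest. In WT M0 the library apart was that of Ffar2 with 0.623 CPM in replicate 1 (the other 4, 0.0920 to 0.199 CPM), Ffar4 with 0.0567 CPM in replicate 1 (the other 4, 0 CPM) and Gpr141 with 15.1 CPM in replicate 4 (the other 4, 25.0 to 28.4 CPM). Of these, only Gpr141 was below the rest. In TRα1PV M1 the library apart was that of Gpr183 with 2.72 CPM in replicate 4 (the other 4, 3.83 to 3.98 CPM), Gpr55 with 7.37 CPM in replicate 3 (the other 4, 8.73 to 9.22 CPM), Gpr84 with 2.48 CPM in replicate 1 (the other 4, 1.05 to 1.22 CPM), P2ry6 with 143 CPM in replicate 1 (the other 4, 117 to 122 CPM) and S1pr1 with 0.589 CPM in replicate 2 (the other 4, 0.378 to 0.432 CPM). Gpr183 and Gpr55 were below the rest and the others above. In WT M1 the library apart was that of Adgrf1 with 0.0395 CPM in replicate 5 (the other 4, 0 CPM), Adora2b with 4.13 CPM in replicate 1 (the other 4, 5.44 to 5.96 CPM) and Ffar4 with 0.0746 CPM in replicate 2 (the other 4, 0 CPM). Only Adora2b was below the rest, and the other two rest on 1 or few reads. In TRα1PV M2 the library apart was that of Adgrg6 with 5.46 CPM in replicate 1 (the other 4, 3.73 to 4.13 CPM) and S1pr1 with 6.58 CPM in replicate 5 (the other 4, 4.52 to 4.71 CPM). Both were above the rest. In WT M2 the library apart was that of Adgre4 with 29.9 CPM in replicate 4 (the other 4, 16.7 to 20.5 CPM), Adgre5 with 419 CPM in replicate 1 (the other 4, 475 to 495 CPM) and S1pr2 with 40.1 CPM in replicate 4 (the other 4, 47.0 to 49.3 CPM). Only Adgre4 was above the rest.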

How the results depend on the processing

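Counts of receptor genes called moved by more than 1.5 times as follows. With only the compared groups in the fit, 9 genes were higher in TRα1PV M0 and 15 lower in TRα1PV M2. With the percentage of reads outside genes in the model, 5 were lower in TRα1PV M0 and 5 in TRα1PV M2. For the change of the genotype difference between M0 and M1, 6 moved up with no filter and 16 without both M0 libraries numbered 2. Between M0 and M2, 2 moved up with DESeq2 and 2 without both M0 libraries numbered 2, 1 moved down with limma-voom and 4 without those libraries. With the replicate number as a block, 2 moved up between M0 and M2, and the block ended the call of no receptor gene. Same-numbered libraries correlated best with their own number in 4 of 5 cases for TRα1PV M2 and M0, 3 of 5 for WT M2 and M0, 3 of 5 for TRα1PV and WT in M2 and 1 or 2 of 5 in the other 4 pairs of groups. Leaving out 1 library at a time gave 10 to 15 genes higher and 4 to 16 lower in TRα1PV M0, 9 to 11 higher and 8 to 16 lower in TRα1PV M1, and 4 to 7 higher and 3 to 10 lower in TRα1PV M2. For the change between M0 and M1 it gave 4 to 14 up and 13 to 17 down, and for that between M0 and M2 1 up and 2 to 4 down. With M1 against M0 it gave 29 to 33 higher and 36 to 37 lower in TRα1PV and 32 to 34 higher and 34 to 35 lower in WT; with M2 against M0, 19 to 21 higher and 26 to 31 lower in TRα1PV and 19 to 21 higher and 25 to 28 lower in WT. Of the calls between genotypes, 13 of 25 in M0, 16 of 24 in M1 and 7 of 16 in M2 held in every such fit. Sign turned only for differences near 0 that did not pass: Gpr65 in M0, -0.0047 with the percentage of reads outside genes in the model, and Adgre1 in M2, -0.0033 without WT M2 replicate 4, the lowest of the leave-one-out values, which reached 0.0737. The cause was not tested. Over the receptor genes called and the few uncalled genes whose p is printed, other uncalled genes left aside, 6532 values kept direction and side of the threshold, 365 lost the call, 6 gained it and 2 turned sign. Genes near 1 CPM are limited by depth.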
